A study of Mus musculus with 16 samples.

Results

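The effect of carrying both mutations at once was compared with the effects of the single mutations in LSK cells, the Lin-cKit+Sca-1+ fraction of mouse bone marrow that holds haematopoietic stem cells and early progenitors. All 16 libraries of the series entered, 4 for each of 4 genotypes, and 22749 of the 55291 genes in the count table had enough counts to be tested. The groups were DM (Asxl1Y588XTg;Srsf2P95H/+, carrying both mutations), Asxl1Tg (Asxl1Y588XTg, carrying a mutant Asxl1 as a transgene), Srsf2P95H (Srsf2P95H/+, with 1 mutated copy of Srsf2) and WT (wild type). Each library came from the RNA of an individual C57BL/6 mouse, and the cells had been enriched with beads. The labels give no age, sex, batch or promoter of the transgene. All 4 DM libraries in the labels and the table entered the fit, although the design text speaks of 3 DM mice. The short name of the Asxl1Tg columns matched no title in full, and these columns were assigned because every other name did.

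The interaction was taken as DM minus Asxl1Tg minus Srsf2P95H plus WT on the log2 scale. It is 0 where the log2 effects of the mutations add, positive where DM lies above that sum and negative where it lies below. Asxl1 is a scaffold protein that works with the deubiquitinase Bap1 and with Polycomb proteins on histone marks, and Srsf2 is an SR protein that binds exonic enhancers and guides the choice of splice sites. Mutations of both genes occur together in human myeloid neoplasms, and the series title concerns leukaemia in mice with the transgene and the Srsf2 mutation. In LSK cells, programmes of growth (ribosome production, DNA replication) and of lineage priming are known to vary between quiescent stem cells and dividing progenitors. In bulk RNA, fewer cells of a type and less RNA per cell cannot be told apart.

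Total counts averaged 120 ± 6.47 M (megacounts) over the DM libraries, 93.6 ± 7.02 M over Asxl1Tg, 99.1 ± 6.08 M over Srsf2P95H and 97.8 ± 18.7 M over WT (SD, n = 4). The DM libraries (113.8 to 127.6 M) were all deeper than every single-mutant library, and the part of depth in the results was not tested. The stem and progenitor markers Kit (699 to 1210 CPM, counts scaled to a common library size by TMM) and Cd34 (738 to 1000 CPM) were high in all 16 libraries, and Ly6a, which encodes Sca-1, was at 23.2 to 54.3 CPM. The lineage markers Cd3e (0 to 0.266 CPM) and Ly6g (0 to 0.2 CPM) were at or near 0. WT 4 stood apart, with the highest Epx (275 CPM, an eosinophil peroxidase) and Cd79a (17 CPM, part of the B cell receptor). Srsf2P95H 2 stood apart in its immediate-early genes, the first genes switched on by a stimulus. Where genes overlap on opposite strands in the annotation, as do Nop56 and Idh3b, Rrp9 and Parp3, Sf3a2 and Plekhj1, Snrpd3 and Gucd1, Mrps18a and Rsph9, Ccr9 and Lztfl1, and Vpreb1 and Top3b, their reads cannot be told apart without the strand setting. Xist, which silences an X chromosome, had at least 1570 CPM in DM 1, Asxl1Tg 3, Srsf2P95H 2, Srsf2P95H 3 and WT 1 and at most 2.11 CPM elsewhere.

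No gene passed the test for non-additivity. With edgeR's quasi-likelihood test, 0 of 22749 genes (0%) had an adjusted p under 0.05, and the smallest adjusted p was 0.0851, for Serpina3g. An unadjusted p under 0.05 was found for 2670 genes (11.7%), of which 1349 (5.93%) had a positive and 1321 (5.81%) a negative value. DESeq2 called 52 genes (34 with positive and 18 with negative values), and limma-voom with quality weights called 4. The median interaction over all genes was 0.03, and 12168 values were positive against 10581 negative. The median standard error (SE) was 0.332 over all genes and 0.139 over the 9452 genes with a mean of at least 10 CPM, whose median absolute interaction was 0.164. For a typical gene, a departure from additivity of that size was therefore about as large as its error and was not detectable. Each gene below is given as a value with its SE and not as a change, unless a sentence names another comparison in which it passed. Those comparisons called 428 genes (1.88%) in Asxl1Tg against WT, 115 (0.506%) in Srsf2P95H against WT, 2135 (9.39%) in DM against WT, 245 (1.08%) in DM against Asxl1Tg and 56 (0.246%) in DM against Srsf2P95H. By direction, the higher and lower calls made up 1.12% and 0.76% of genes in Asxl1Tg against WT, 0.264% and 0.242% in Srsf2P95H against WT, 4.65% and 4.73% in DM against WT, 0.848% and 0.229% in DM against Asxl1Tg, and 0.215% and 0.0308% in DM against Srsf2P95H. All of them share libraries with the interaction and give it no independent support. In particular, WT enters the interaction with a plus sign and both single effects with a minus sign, so a WT mean that lies low lowers the interaction and raises both single effects.

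Serpina3g, a serine protease inhibitor of the mouse Serpina3 cluster that is expressed in haematopoietic cells, had the smallest p of all genes. It lies at chr12:104236245-104241939 on the plus strand (GRCm38). Part of its RefSeq promoter is shown, since this gene came nearest to a call. The capitals mark a match to TTCNNNGAA, a STAT-type motif that reads the same on both strands and that 8.3% of 32851 RefSeq mouse promoters of 300 bases hold (250 before and 50 after the start). Among the 9 promoters of the Serpina3 cluster listed there, 4 hold it. The window is chr12:104236008-104236127, plus strand, GRCm38.p6.
Serpina3g: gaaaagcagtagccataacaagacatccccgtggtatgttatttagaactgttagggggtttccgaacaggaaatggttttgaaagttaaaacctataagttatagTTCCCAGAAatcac

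Serpina3g was at 60.4, 59.6, 50.2 and 50.9 CPM in DM, at 73.8, 69.7, 69.7 and 86.3 CPM in Asxl1Tg, at 65.2, 60.8, 61.9 and 77.8 CPM in Srsf2P95H, and at 53.5, 43.7, 45.7 and 44.1 CPM in WT. Every DM library lay below every single-mutant library, and DM and WT overlapped. Added log2 effects would have put DM at 106 CPM, and its mean was 55.28 ± 5.49 CPM (SD, n = 4). The interaction was -0.95 (SE 0.14, adjusted p = 0.0851 by edgeR). Serpina3g rose in Asxl1Tg against WT (log2 0.68, adjusted p = 0.00271) and in Srsf2P95H against WT (0.51, adjusted p = 0.0379), and it fell in DM against Asxl1Tg (-0.44, adjusted p = 0.0452), all by edgeR. In DM against WT the value was 0.24 (adjusted p = 0.115). Its adjusted p for the interaction ran from 5.29e-06 with DESeq2 to 0.302 over the alternatives, while its value stayed between -1.02 and -0.86 when any library was left out. The neighbouring paralog Serpina3f (-0.26, SE 0.40) and Serpina3h (-0.46, SE 0.51) had values within about 1 SE of 0. Reads shared among these near-identical genes could have been split or dropped in counting, so the levels are uncertain.

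Parp2 and Pim2 had higher means in both single mutants than in DM and WT. Parp2, a sensor of DNA strand breaks, was at 47.2, 41.3, 40.6 and 46.1 CPM in DM, 51.4, 47.7, 50.9 and 48.8 CPM in Asxl1Tg, 51.5, 47.7, 49.2 and 49.3 CPM in Srsf2P95H, and 44.5, 41.9, 40.9 and 38.1 CPM in WT. All 8 single-mutant libraries lay above all DM and WT libraries, and the interaction was -0.44 (SE 0.09, adjusted p = 0.378 by edgeR). Genes picked for a small p of the interaction, as Serpina3g and Parp2 were, tend to show such gaps between groups. The gaps therefore give no added support, here or for the genes below picked in this way. Pim2, a serine/threonine kinase that promotes survival and protein synthesis, averaged 27.11 ± 4.07 CPM in DM, 42.16 ± 11.3 CPM in Asxl1Tg, 43.34 ± 12.6 CPM in Srsf2P95H and 27.05 ± 5.77 CPM in WT (SD, n = 4). Its interaction was -1.32 (SE 0.31). The DM libraries of Pim2 (23.3 to 32.8 CPM) lay below all Asxl1Tg libraries (35 to 58.8 CPM) and overlapped those of Srsf2P95H and WT. Pop1, a protein of RNase P and RNase MRP, had an interaction of -0.77 (SE 0.20) and Mrps18a, a protein of the mitochondrial ribosome, -0.51 (SE 0.13). Akap1, an anchoring protein of the mitochondrial surface, averaged 63 ± 4.25 CPM in DM, 73.67 ± 10.4 CPM in Asxl1Tg, 63.91 ± 9.68 CPM in Srsf2P95H and 47.52 ± 5.15 CPM in WT, so that DM stood with Srsf2P95H and above WT (log2 0.41 in DM against WT, adjusted p = 0.0392, edgeR), and its interaction was -0.65 (SE 0.16).

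In a second pattern, DM stood near the single mutants and all 3 mutant groups stood away from WT. Matn4, a matrilin of the extracellular matrix, was at 3.01, 1.73, 3.64 and 2.61 CPM in DM, 2.10, 3.05, 6.52 and 1.67 CPM in Asxl1Tg, 1.55, 1.25, 1.70 and 2.05 CPM in Srsf2P95H, and 0.266, 0.360, 0.188 and 0.281 CPM in WT. Every mutant library lay above every WT library, and the mutant groups overlapped one another. Matn4 rose against WT in DM (log2 3.33), in Asxl1Tg (3.61) and in Srsf2P95H (2.59), at adjusted p of 0.000398, 0.000274 and 0.0129 by edgeR. Added effects would have put DM at 20 CPM, and the interaction was -2.87 (SE 0.52, adjusted p = 0.245). Dock1, an activator of the GTPase Rac, averaged 116.8 ± 8.07 CPM in DM, 110.1 ± 2.19 CPM in Asxl1Tg, 100.2 ± 4.64 CPM in Srsf2P95H and 67.09 ± 10.1 CPM in WT, with an interaction of -0.49 (SE 0.12). Gpc3, a cell-surface heparan sulphate proteoglycan, averaged 7.463 ± 1.33 CPM in DM, 11.04 ± 4.23 CPM in Asxl1Tg, 8.661 ± 0.735 CPM in Srsf2P95H and 3.806 ± 1.72 CPM in WT, with an interaction of -1.75 (SE 0.41). For Dock1 the adjusted p was 0.0163 without WT 1, where the value was -0.61. Matn4 overlaps Rbpjl on the opposite strand in the annotation, and without the strand setting of the count their reads cannot be told apart.

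Ccr9, a receptor that guides lymphoid precursors towards the thymus and gut, was low in all 3 mutant groups. It was at 0.657, 0.757, 1.58 and 1.6 CPM in DM, 1.04, 1.39, 0.985 and 1.29 CPM in Asxl1Tg, 0.850, 1.4, 0.971 and 1.62 CPM in Srsf2P95H, and 2.56, 14.6, 15.4 and 21.4 CPM in WT. All 12 mutant libraries lay below all WT libraries and overlapped one another. Ccr9 fell against WT in DM (log2 -3.55, adjusted p = 0.0017), in Asxl1Tg (-3.52, adjusted p = 0.00277) and in Srsf2P95H (-3.48, adjusted p = 0.0129, edgeR). The added effects would have meant 0.106 CPM in DM against a mean of 1.15 ± 0.513 CPM, and the interaction was 3.45 (SE 0.67, adjusted p = 0.272). Without WT 1, the lowest of its WT libraries, the value was 3.79 and the adjusted p was 0.00175.

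**Figure D1:**
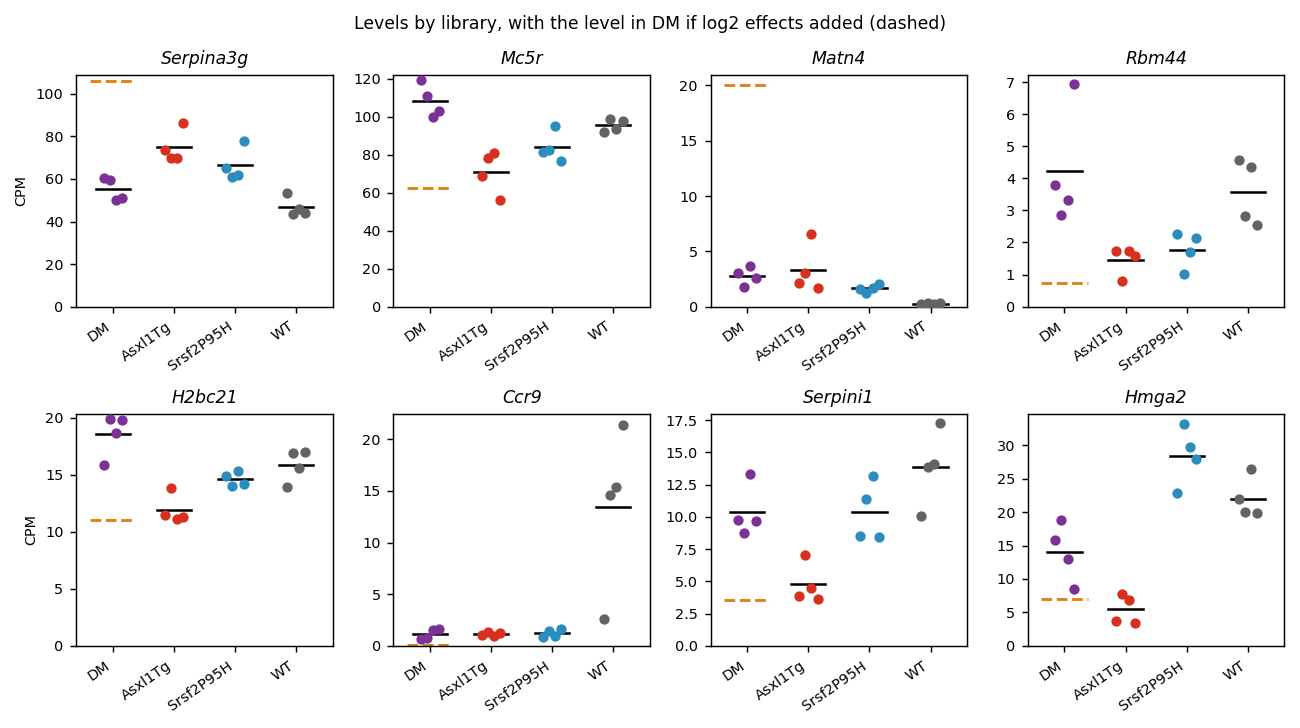
CPM of 8 genes by library (points) with the group mean (black line) in DM, Asxl1Tg, Srsf2P95H and WT (4 libraries each); the dashed line in the DM column is the level that added log2 effects would give. Serpina3g lies well below its dashed line in all 4 DM libraries, and Mc5r and H2bc21 lie above theirs.

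Positive values were found in genes that stood lowest in Asxl1Tg. Mc5r, a melanocortin receptor, had the second smallest p: it was at 119, 111, 99.7 and 103 CPM in DM, 68.6, 78.0, 81.0 and 56.2 CPM in Asxl1Tg, 81.1, 82.3, 95.2 and 76.8 CPM in Srsf2P95H, and 92.1, 98.9, 93.5 and 97.9 CPM in WT. The 4 DM libraries lay above the other 12. Its interaction was 0.80 (SE 0.14, adjusted p = 0.245), and it fell in Asxl1Tg against WT (log2 -0.43, adjusted p = 0.0349) and rose in DM against Asxl1Tg (0.61, adjusted p = 0.0121, edgeR). H2bc21, a histone H2B gene, was at 15.9, 19.9, 18.7 and 19.8 CPM in DM, 11.5, 13.8, 11.1 and 11.3 CPM in Asxl1Tg, 14.9, 14, 15.3 and 14.2 CPM in Srsf2P95H, and 13.9, 16.9, 15.6 and 17.0 CPM in WT. Its DM libraries lay above all single-mutant libraries and overlapped WT, with an interaction of 0.76 (SE 0.14). Since histone genes are near-identical, reads shared with other H2B genes make this level uncertain.

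Serpini1, which encodes neuroserpin, averaged 10.37 ± 2.01 CPM in DM, 4.787 ± 1.57 CPM in Asxl1Tg, 10.37 ± 2.29 CPM in Srsf2P95H and 13.83 ± 2.93 CPM in WT. The Asxl1Tg libraries (3.65 to 7.08 CPM) lay below all others. Serpini1 fell in Asxl1Tg against WT (log2 -1.53, adjusted p = 0.00271) and rose in DM against Asxl1Tg (1.12, adjusted p = 0.0269, edgeR), and its interaction was 1.53 (SE 0.31). Ptgds, a prostaglandin D2 synthase, averaged 2.407 ± 0.546 CPM in DM, 0.9202 ± 0.173 CPM in Asxl1Tg, 1.805 ± 0.124 CPM in Srsf2P95H and 1.688 ± 0.261 CPM in WT, with an interaction of 1.29 (SE 0.29). The receptor tyrosine kinase gene Erbb3 (0.83, SE 0.20) and Gnb4, a G protein beta subunit (0.71, SE 0.17), likewise had the lowest mean in Asxl1Tg and the highest in DM. Rbm44, an RNA-binding protein gene, was instead low in both single mutants, at 3.79, 2.87, 3.32 and 6.93 CPM in DM, 1.72, 0.810, 1.74 and 1.57 CPM in Asxl1Tg, 2.26, 1.02, 1.69 and 2.13 CPM in Srsf2P95H, and 4.57, 2.84, 4.36 and 2.54 CPM in WT. All DM and WT libraries of Rbm44 lay above all single-mutant libraries, and the interaction was 2.54 (SE 0.47, adjusted p = 0.245). Tacc2, a centrosomal protein, ran the other way, with Asxl1Tg (19.1 to 22.9 CPM) above all 12 other libraries (12.5 to 16.5 CPM) and an interaction of -0.53 (SE 0.13). It rose in Asxl1Tg against WT (log2 0.48, adjusted p = 0.0175) and fell in DM against Asxl1Tg (-0.48, adjusted p = 0.0257, edgeR). Tacc2 overlaps Fgfr2 on the opposite strand.

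The mutated genes themselves were examined by their total level. Asxl1 (chr2:153345829-153404007) averaged 225.7 ± 8.89 CPM in DM, 228.1 ± 7.94 CPM in Asxl1Tg, 213.9 ± 13.5 CPM in Srsf2P95H and 219.6 ± 7.32 CPM in WT (SD, n = 4), with an interaction of 0.02 (SE 0.08). Srsf2 (chr11:116849901-116853094) was at 230, 190, 180 and 214 CPM in DM, 294, 230, 231 and 262 CPM in Asxl1Tg, 234, 186, 231 and 247 CPM in Srsf2P95H, and 237, 216, 192 and 173 CPM in WT. The groups overlapped, Asxl1Tg had the highest mean, and the interaction was -0.46 (SE 0.16, adjusted p = 0.378 by edgeR). Srsf2 overlaps Mfsd11 and Mettl23 on the opposite strand. A count per gene cannot show the point mutation, and whether reads of the transgene count towards Asxl1 is not given in the sources used here, so these levels do not check the labels.

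The clearest shared pattern was in genes of ribosome production, where all members had negative values. In the list of MYC and ribosome biogenesis genes, 30 of 30 interactions were negative and 23 had an unadjusted p under 0.05, against 5.81% of all genes with a negative value that small. The median was -0.47, against 0.03 over all genes. None of the 30 was called. Members of this and every other list were measured in the same 16 libraries and are not independent. Such counts therefore do not measure the spread between mice. The mean log2 CPM of the list averaged 7.3 ± 0.16 in DM, 7.39 ± 0.21 in Asxl1Tg, 7.43 ± 0.15 in Srsf2P95H and 7.06 ± 0.2 in WT (SD, n = 4). The medians were 0.24 in DM against WT, 0.32 in Asxl1Tg against WT and 0.37 in Srsf2P95H against WT, so the DM median was no higher than that of either single mutant. Nolc1, a nucleolar chaperone of small nucleolar RNPs, averaged 194.3 ± 24.6 CPM in DM, 229.6 ± 50.6 CPM in Asxl1Tg, 223.9 ± 31.1 CPM in Srsf2P95H and 157.4 ± 24.7 CPM in WT (SD, n = 4), with an interaction of -0.75 (SE 0.22). Nop56, a core protein of box C/D small nucleolar RNPs, had -0.58 (SE 0.15) and Rrp9, which binds the U3 small nucleolar RNA, -0.71 (SE 0.22). Myc itself was at 501, 511, 282 and 413 CPM in DM, 543, 371, 391 and 479 CPM in Asxl1Tg, 524, 497, 364 and 493 CPM in Srsf2P95H, and 361, 339, 329 and 304 CPM in WT. DM 3 was the lowest library of Myc, the single-mutant libraries all lay above WT, and the interaction was -0.56 (SE 0.24).

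Nop2, a methyltransferase of ribosomal RNA, was at 130, 124, 97.4 and 123 CPM in DM, 153, 107, 132 and 164 CPM in Asxl1Tg, 157, 120, 110 and 160 CPM in Srsf2P95H, and 101, 106, 97.0 and 90.6 CPM in WT. All single-mutant libraries of Nop2 lay above all WT libraries, DM 3 lay among the WT libraries, and the interaction was -0.70 (SE 0.20). Its promoter is shown because it holds an E-box of the kind that MYC binds. The capitals mark CACGTG, which reads the same on both strands. It occurs in 7.15% of the 32851 promoters and in 5 of the 31 promoters of the list (24 of 30 genes had one). The window is chr6:125131714-125131833, plus strand, GRCm38.p6.
Nop2: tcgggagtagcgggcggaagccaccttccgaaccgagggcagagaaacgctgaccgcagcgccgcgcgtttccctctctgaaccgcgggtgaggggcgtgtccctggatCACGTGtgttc

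WT 4 and DM 3 bear on this list. The mean log2 CPM of MYC and ribosome biogenesis genes was 7.44, 7.36, 7.07 and 7.32 in DM, 7.55, 7.12, 7.34 and 7.57 in Asxl1Tg, 7.59, 7.29, 7.33 and 7.53 in Srsf2P95H, and 7.23, 7.17, 7.08 and 6.78 in WT. WT 4 was the lowest of all 16 libraries, and it also had the highest mean log2 CPM of mature B cell genes (3.51, where WT 1 to 3 had 0.06 to 1.37) and of eosinophil genes (5.69, where they had 0.95 to 3.65). Without WT 4 the median of the list was -0.37 and 19 of 30 members had an unadjusted p under 0.05. Without DM 3 the median was -0.4 and the count 18. With eosinophil, B and T cell levels as a covariate the median was -0.41 and the count 22. Over all libraries left out in turn, the count ran from 17 (without Asxl1Tg 4) to 28 and the median from -0.54 to -0.37. Genes of the cytosolic ribosomal proteins did not go along. Their interactions had a median of -0.01, with 18 positive and 22 negative of 40 and none at an unadjusted p under 0.05.

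**Figure D2:**
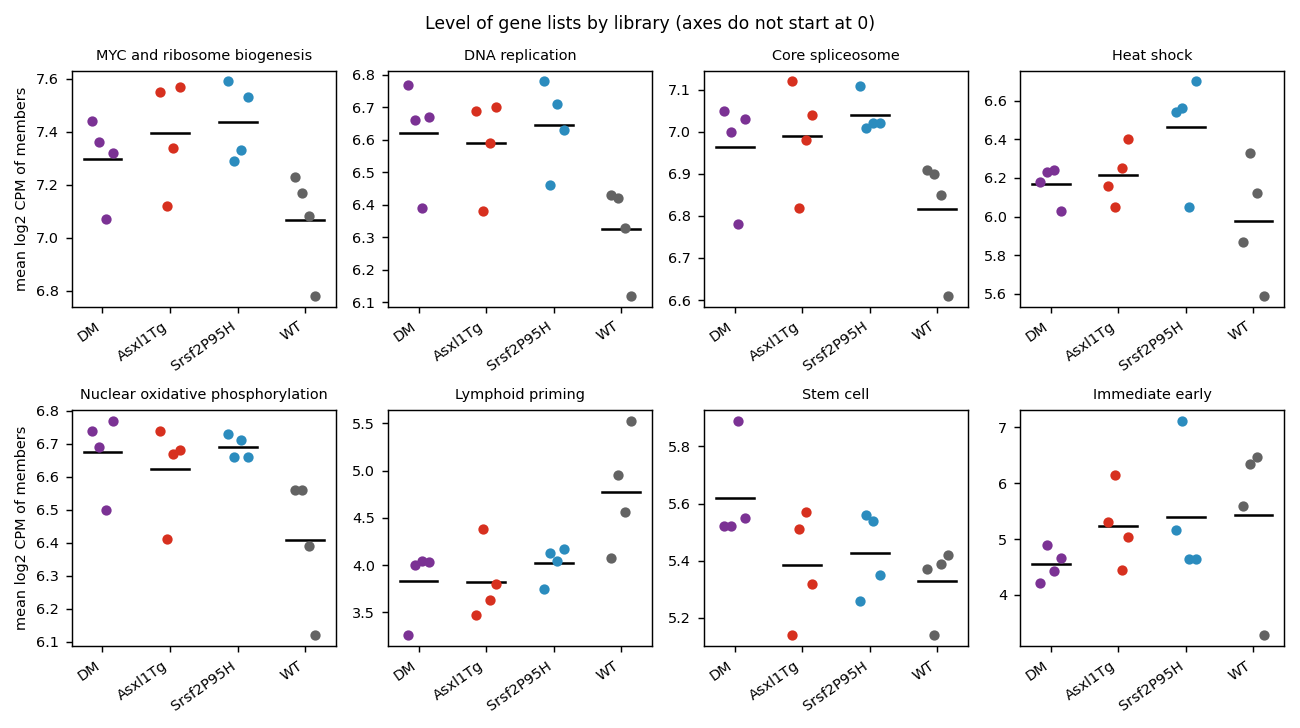
Mean log2 CPM over the members of 8 gene lists by library (points) with the group mean (line) in DM, Asxl1Tg, Srsf2P95H and WT; the axes do not start at 0. In MYC and ribosome biogenesis genes DM lies between the single mutants and WT, with WT 4 lowest at 6.78, and lymphoid priming genes are highest in WT.

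DNA replication genes had negative values throughout. All 35 interactions of the list were negative, 13 had an unadjusted p under 0.05, none was called, and the median was -0.31. The medians were 0.31 in DM against WT, 0.28 in Asxl1Tg against WT and 0.33 in Srsf2P95H against WT, so the 3 mutant groups stood at about the same level. E2f1, a transcription factor of S phase entry, averaged 49.14 ± 6.48 CPM in DM, 56.47 ± 5.58 CPM in Asxl1Tg, 51.74 ± 3.36 CPM in Srsf2P95H and 43.49 ± 3.88 CPM in WT, with an interaction of -0.45 (SE 0.14). Gins1 of the replicative helicase (-0.46, SE 0.18) and Pola2, a subunit of DNA polymerase alpha (-0.32, SE 0.12), had values of like size. Orc1, which marks replication origins, was at 18.1, 17.6, 13.9 and 17.3 CPM in DM, 20.4, 14.8, 18.1 and 20.5 CPM in Asxl1Tg, 22.2, 15.3, 17.1 and 20.3 CPM in Srsf2P95H, and 16.3, 14.8, 12.8 and 15.6 CPM in WT. The groups of Orc1 overlapped, and its interaction was -0.48 (SE 0.19). In mitosis genes, in contrast, the median was -0.03 and none of 30 members had an unadjusted p under 0.05.

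Orc1 is shown for an E2F-type motif. The capitals mark TTTCGCGC on the minus strand, printed here as its complement on the plus strand. On either strand it occurs in 0.323% of the 32851 promoters and in 6 of the 33 promoters of the DNA replication list (28 of 35 genes had one). A related form, TTTGGCGC, occurs in 0.514% of all promoters and likewise in 6 of those 33. The window is chr4:108579320-108579439, plus strand, GRCm38.p6.
Orc1: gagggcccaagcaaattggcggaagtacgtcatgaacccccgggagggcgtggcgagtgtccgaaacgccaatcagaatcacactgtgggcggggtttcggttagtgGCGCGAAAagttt

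The replication list was more sensitive to single libraries than the ribosome list. Its count of members at an unadjusted p under 0.05 was 5 of 35 without WT 4 (median -0.25), 9 with the eosinophil, B and T cell covariate (median -0.28), 3 without DM 3 (median -0.24) and 21 without Asxl1Tg 2. The median stayed negative, from -0.38 to -0.24, in every alternative run.

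Splicing genes were examined because Srsf2 is one of them. In the core spliceosome list 31 of 33 interactions were negative, 12 had an unadjusted p under 0.05 and the median was -0.26. The medians were 0.18 in DM against WT, 0.20 in Asxl1Tg against WT and 0.24 in Srsf2P95H against WT. Sf3a2 of the U2 snRNP averaged 106.8 ± 10.1 CPM in DM, 120.6 ± 18.7 CPM in Asxl1Tg, 113.9 ± 8.18 CPM in Srsf2P95H and 93.8 ± 9.47 CPM in WT, with an interaction of -0.46 (SE 0.15). U2af1, which recognises the splice acceptor, had -0.40 (SE 0.13) and Snrpd3, a core Sm protein, -0.42 (SE 0.15). The count was 7 of 33 without WT 4, 6 without DM 3 and 19 without Asxl1Tg 2. Among SR proteins and hnRNPs, 24 of 26 values were negative with a smaller median of -0.16, and Srsf2 and Srsf7 (-0.41, SE 0.19) were the 2 members at an unadjusted p under 0.05. These made up 7.69% of the list, near the 5.81% of all genes with a negative value that small. Srsf6 had -0.30 (SE 0.16).

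Reported splice targets of mutant SRSF2, tested here for their level and not for their splicing, had a median of 0.04 with 11 positive and 8 negative values. Atf2, a transcription factor of the stress response, averaged 102.4 ± 4.84 CPM in DM, 79.41 ± 4.63 CPM in Asxl1Tg, 98.78 ± 4.28 CPM in Srsf2P95H and 93.72 ± 3.31 CPM in WT. Its Asxl1Tg libraries (72.6 to 82.9 CPM) lay below the other 12, and the interaction was 0.29 (SE 0.08, adjusted p = 0.378). Atf2 fell in Asxl1Tg against WT (log2 -0.24, adjusted p = 0.0486) and rose in DM against Asxl1Tg (0.37, adjusted p = 0.0121, edgeR). Armc10 had 0.21 (SE 0.10) and Csf3r, the G-CSF receptor, -0.45 (SE 0.21).

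Protein-folding genes also had mostly negative values. Among heat shock genes 17 of 20 were negative, 8 had an unadjusted p under 0.05 and the median was -0.43. The medians were 0.30 in DM against WT, 0.27 in Asxl1Tg against WT and 0.56 in Srsf2P95H against WT. Hspa8, the constitutive HSP70 chaperone, was at 2020, 2360, 2180 and 2160 CPM in DM, 2880, 1670, 2100 and 2630 CPM in Asxl1Tg, 3880, 2740, 1890 and 2440 CPM in Srsf2P95H, and 1400, 1950, 1720 and 1410 CPM in WT. The DM libraries of Hspa8 lay close together above WT, the single mutants spread widely around them, and the interaction was -0.85 (SE 0.27). Hsf1, the transcription factor of the heat shock response, had -0.41 (SE 0.13), and Ahsa1, a co-chaperone of HSP90, -0.58 (SE 0.23). The count of negative members was 3 of 20 without WT 4 (with 1 positive), without Asxl1Tg 4 or without Srsf2P95H 1, and 11 without Srsf2P95H 3. Immediate-early genes, which move with handling of cells, were highest in Srsf2P95H 2 (mean log2 CPM 7.12), and without that library 9 of 20 heat shock genes had an unadjusted p under 0.05.

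Hspe1, the mitochondrial HSP10 chaperonin, had -0.56 (SE 0.28) and is shown for its heat shock element letters. It shares its promoter region with Hspd1 (-0.70), which overlaps it on the opposite strand in the annotation. The capitals mark GAANNTTC, the core of a heat shock element, which reads the same on both strands. It occurs in 7.86% of the 32851 promoters and in 10 of the 21 promoters of heat shock genes (15 of 20 genes had one). The window is chr1:55087957-55088076, plus strand, GRCm38.p6.
Hspe1: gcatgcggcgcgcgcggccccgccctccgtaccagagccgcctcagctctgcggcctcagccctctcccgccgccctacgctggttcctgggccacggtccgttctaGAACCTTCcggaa

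In the unfolded protein response, the answer to misfolded proteins in the endoplasmic reticulum, 22 of 25 values were negative, 5 had an unadjusted p under 0.05 and the median was -0.44. The chaperones Hyou1 (-0.83, SE 0.36) and Dnajb11 (-0.67, SE 0.26) and the transcription factor gene Xbp1 (-0.44, SE 0.19) were among the 5. Hyou1 was at 401 to 481 CPM in DM, 265 to 617 CPM in Asxl1Tg, 376 to 646 CPM in Srsf2P95H and 204 to 392 CPM in WT. Its DM libraries lay above all WT libraries and within the range of both single mutants. The count of the list was 1 without Asxl1Tg 1, Asxl1Tg 4 or Srsf2P95H 1, and 15 without Asxl1Tg 2.

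Energy metabolism followed with smaller values. Among nuclear genes of oxidative phosphorylation 37 of 40 were negative, 10 had an unadjusted p under 0.05 and the median was -0.23, with medians of 0.27 in DM against WT, 0.20 in Asxl1Tg against WT and 0.28 in Srsf2P95H against WT. Cox5b of complex IV averaged 107.3 ± 9.17 CPM in DM, 119.5 ± 13.8 CPM in Asxl1Tg, 109.9 ± 4.36 CPM in Srsf2P95H and 88.61 ± 14.7 CPM in WT, with an interaction of -0.47 (SE 0.15). Cycs, which encodes cytochrome c, had -0.68 (SE 0.26) and Ndufb7 of complex I -0.32 (SE 0.13). The count of the list was 3 without WT 4, 2 without DM 3 and 21 without Asxl1Tg 2. These libraries had the lowest mean log2 CPM of their groups here and in the ribosome biogenesis, DNA replication and core spliceosome lists. The negative values of these lists are therefore not separate evidence. Of the mitochondrially encoded genes, 11 of 12 had positive values with a median of 0.32, and 1, mt-Nd5 at 0.38, had an unadjusted p under 0.05. DM 1 stood apart in this list (mean log2 CPM 5.83, where DM 2 to 4 had 5.03 to 5.1), and without it the median was 0.12.

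Among glycolysis and hypoxia genes 19 of 26 values were negative, 7 had an unadjusted p under 0.05 and the median was -0.24. Hk2, a hexokinase of the first step of glycolysis, was at 129 to 134 CPM in DM, 130 to 164 CPM in Asxl1Tg, 114 to 148 CPM in Srsf2P95H and 90.9 to 117 CPM in WT. It rose against WT in DM (log2 0.33, adjusted p = 0.0487) and in Asxl1Tg (0.48, adjusted p = 0.0225, edgeR), and its interaction was -0.51 (SE 0.14). Ldha, lactate dehydrogenase, had -0.65 (SE 0.24) and Pgam1, a mutase of the pathway, -0.57 (SE 0.23). Without WT 4 the median was -0.17 and 3 members had a negative value at an unadjusted p under 0.05, against 11 without WT 1. Cholesterol and fatty acid synthesis genes stood at a median of 0.00, with 13 positive and 13 negative values.

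**Figure D3:**
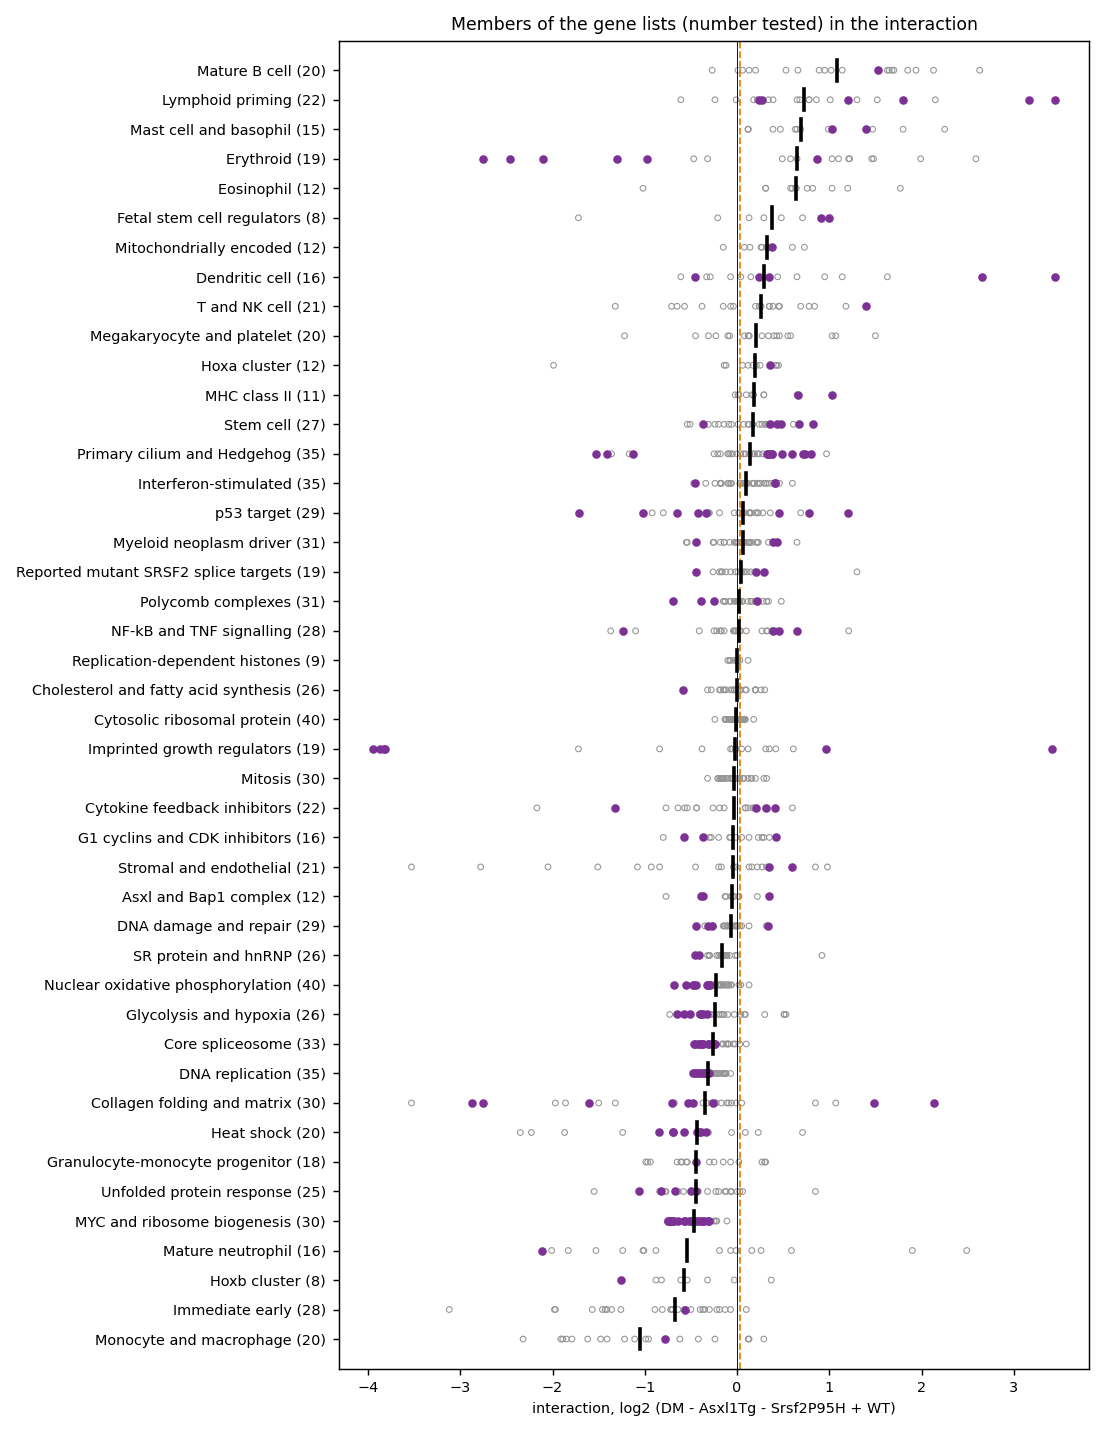
Interaction (log2, x axis) of the members of the 44 gene lists with at least 8 tested members; filled points have an unadjusted p under 0.05, short black lines are list medians and the dashed line is the median of all genes (0.03). Lists of ribosome biogenesis, heat shock, DNA replication and spliceosome genes lie left of 0, and lymphoid priming and mature B cell genes lie right of it.

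Genes of the lymphoid programme had positive values. In the lymphoid priming list 19 of 22 were positive, 6 had an unadjusted p under 0.05 against 5.93% of all genes, none was called, and the median was 0.73. The medians were -0.94 in DM against WT, -0.84 in Asxl1Tg against WT and -0.68 in Srsf2P95H against WT. Besides Ccr9, the recombinase gene Rag2 was at 2.23, 4.21, 2.77 and 4.63 CPM in DM, 1.46, 3.87, 1.89 and 1.38 CPM in Asxl1Tg, 2.04, 3.24, 3.16 and 3.31 CPM in Srsf2P95H, and 3.21, 6.24, 5.77 and 10.1 CPM in WT. WT was highest, WT 1 overlapped the mutants, and the interaction was 1.80 (SE 0.52). Gcsam, a germinal-centre gene, averaged 2.539 ± 0.283 CPM in DM, 1.695 ± 0.971 CPM in Asxl1Tg, 3.90 ± 1.53 CPM in Srsf2P95H and 5.982 ± 1.52 CPM in WT, with an interaction of 1.20 (SE 0.49). Ikzf1, the transcription factor Ikaros of lymphoid commitment, fell in Asxl1Tg against WT (log2 -0.33, adjusted p = 0.0228, edgeR), and its interaction was 0.27 (SE 0.10).

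WT 4 was also the highest library of the lymphoid list (mean log2 CPM 5.53, where WT 1 to 3 had 4.08 to 4.95), and DM 1 the lowest (3.26). Without WT 4 the median was 0.41 and 3 of 22 members had a positive value at an unadjusted p under 0.05, and over all libraries left out in turn the median ran from 0.41 to 0.92 and the count from 3 to 10. With the eosinophil, B and T cell covariate the median was 0.53 and the count 4. Mature B cell genes had a median of 1.08 with 19 of 20 values positive, 1 of them (Ighd, 1.53, SE 0.72) at an unadjusted p under 0.05. Summed over the list, B cell genes were at 323 to 1590 CPM in DM, 277 to 2350 CPM in Asxl1Tg, 334 to 615 CPM in Srsf2P95H and 317 to 1760 CPM in WT. Cd79a was at 1.18 to 2.91 CPM in DM, 1.08 to 2.74 CPM in Asxl1Tg, 1.41 to 2.28 CPM in Srsf2P95H, and 1.34, 4.61, 1.18 and 17.0 CPM in WT. Vpreb1, of the surrogate light chain, had 1.70 (SE 0.92) and Ly6d, an early B lineage marker, 1.63 (SE 0.94). Without WT 4 the median of the B cell list was -0.02. The part of these cells in the lymphoid values beyond what the covariate and the left-out library show was not tested.

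Other cell types had wide errors. The marker lists' summed levels ran from 102 to 165 CPM in DM, 73.8 to 364 CPM in Asxl1Tg, 106 to 537 CPM in Srsf2P95H and 56.9 to 1700 CPM in WT for eosinophil genes, with WT 4 at the top. Of 12 eosinophil genes 11 had positive values (median 0.64), none at an unadjusted p under 0.05, and the median was -0.52 without WT 4 and 1.4 without Asxl1Tg 3. Il5ra, the interleukin 5 receptor, had 1.20 (SE 0.72), Alox15, a lipoxygenase, 1.77 (SE 1.52), Siglecf 0.31 (SE 0.30) and Gata1 0.58 (SE 0.48). T and NK cell genes summed to 124 to 200 CPM in DM and 125 to 160 CPM in Asxl1Tg. In Srsf2P95H they summed to 140 to 157 CPM and in WT to 108 to 147 CPM. The medians of the members against WT were nonetheless negative, at -1.41 in DM, -0.92 in Asxl1Tg and -0.61 in Srsf2P95H. The median interaction of T and NK cell genes was 0.26. It was 0.61 without Srsf2P95H 2 and 0.09 without Srsf2P95H 1. With the eosinophil, B and T cell covariate it was -0.01. These genes form part of that covariate, so this value does not test the list. All 15 mast cell and basophil genes had positive values (median 0.69), of which Cpa3, a mast cell carboxypeptidase (1.03, SE 0.47), and Gzmb, granzyme B (1.4, SE 0.48), had an unadjusted p under 0.05. Cma1, a chymase, had 2.25 (SE 1.24) and Il4 0.65 (SE 0.34). The mast cell and basophil genes summed to 435 to 659 CPM in DM, 321 to 804 CPM in Asxl1Tg, 425 to 636 CPM in Srsf2P95H and 343 to 892 CPM in WT, and their median was 0.42 without WT 4 and 1.19 without Asxl1Tg 1.

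Monocyte and macrophage genes had the most negative median of any list, -1.05, with 17 of 20 values negative. Their medians were -0.80 in DM against WT, 0.75 in Asxl1Tg against WT and -0.20 in Srsf2P95H against WT, and the interaction median ran from -1.75 with the eosinophil, B and T cell covariate to -0.35 without Srsf2P95H 3. They summed to 437 to 620 CPM in DM, 390 to 781 CPM in Asxl1Tg, 420 to 625 CPM in Srsf2P95H and 196 to 534 CPM in WT. Cd68, a lysosomal protein of macrophages, was at 11.3, 13.7, 13.3 and 9.24 CPM in DM, 22.3, 22.3, 13.4 and 21.7 CPM in Asxl1Tg, 11.9, 15.3, 14.2 and 15.3 CPM in Srsf2P95H, and 15.3, 11.8, 10.7 and 17.3 CPM in WT. It was high in 3 of 4 Asxl1Tg libraries and had the only unadjusted p under 0.05 in the list (-0.78, SE 0.26). Csf1r (-0.99, SE 0.52), Ccr2 (-1.11, SE 0.70) and Fcgr1 (-1.62, SE 1.07), receptors of monocytes, had larger errors. Of 16 mature neutrophil genes 11 were negative with a median of -0.54, which was -1.7 without WT 4 and -0.12 without Asxl1Tg 3. Lcn2, an iron-siderophore binding protein of granules, had -2.11 (SE 0.79), and S100a9 (-1.83, SE 1.34), Chil3 (-2.01, SE 1.67) and Cd177 (-1.53, SE 1.13) had errors near the size of their values. Without Asxl1Tg 3, S100a9 was -0.51 and Chil3 was -0.11.

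Erythroid genes split by kind. Of 19, 12 had positive and 7 negative values, with a median of 0.65, 1 positive and 5 negative members at an unadjusted p under 0.05. The globins lay on the negative side: Hbb-bs was at 5.17, 1.38, 1.63 and 2.46 CPM in DM, 18.6, 11.1, 15.4 and 2.99 CPM in Asxl1Tg, 19.6, 7.89, 11.8 and 2.17 CPM in Srsf2P95H, and 7.75, 5.74, 2.44 and 11.9 CPM in WT. DM was low, and replicate 4 of both single mutants and WT 3 were as low as DM. Hbb-bs had an interaction of -2.75 (SE 1), Hba-a1 -2.10 (SE 0.82) and Hba-a2 -2.46 (SE 1.09), and as near-identical copies these genes share reads. Car2, a carbonic anhydrase of red cell precursors, lay on the positive side at 0.87 (SE 0.32). Erythroid genes summed to 552 to 877 CPM in DM, 456 to 968 CPM in Asxl1Tg, 520 to 582 CPM in Srsf2P95H and 573 to 1230 CPM in WT, and without Asxl1Tg 3 their median was 1.51 with 11 positive members at an unadjusted p under 0.05. The median was 0.14 without WT 2, and the negative count was 1 without Srsf2P95H 1.

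Immediate-early genes had 27 of 28 negative values and a median of -0.67, of which only Myc had an unadjusted p under 0.05. Nr4a1, an orphan nuclear receptor of this class, was at 5.49, 7.67, 6.50 and 7.17 CPM in DM, 12.9, 104, 6.73 and 11.4 CPM in Asxl1Tg, 10.5, 503, 14 and 6.81 CPM in Srsf2P95H, and 71.0, 126, 107 and 4.21 CPM in WT. The DM libraries were uniformly low, while 1 library of each single mutant was high and WT 4 was low. The interaction of Nr4a1 was -3.12 (SE 2) and turned to 0.56 without Srsf2P95H 2. Klf2 (-1.98, SE 1.53) turned to 0.21 without it, and Fosl2 had -0.64 (SE 0.44). The median of the list was 0.21 without Srsf2P95H 2, so its direction rests on that library.

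**Figure D4:**
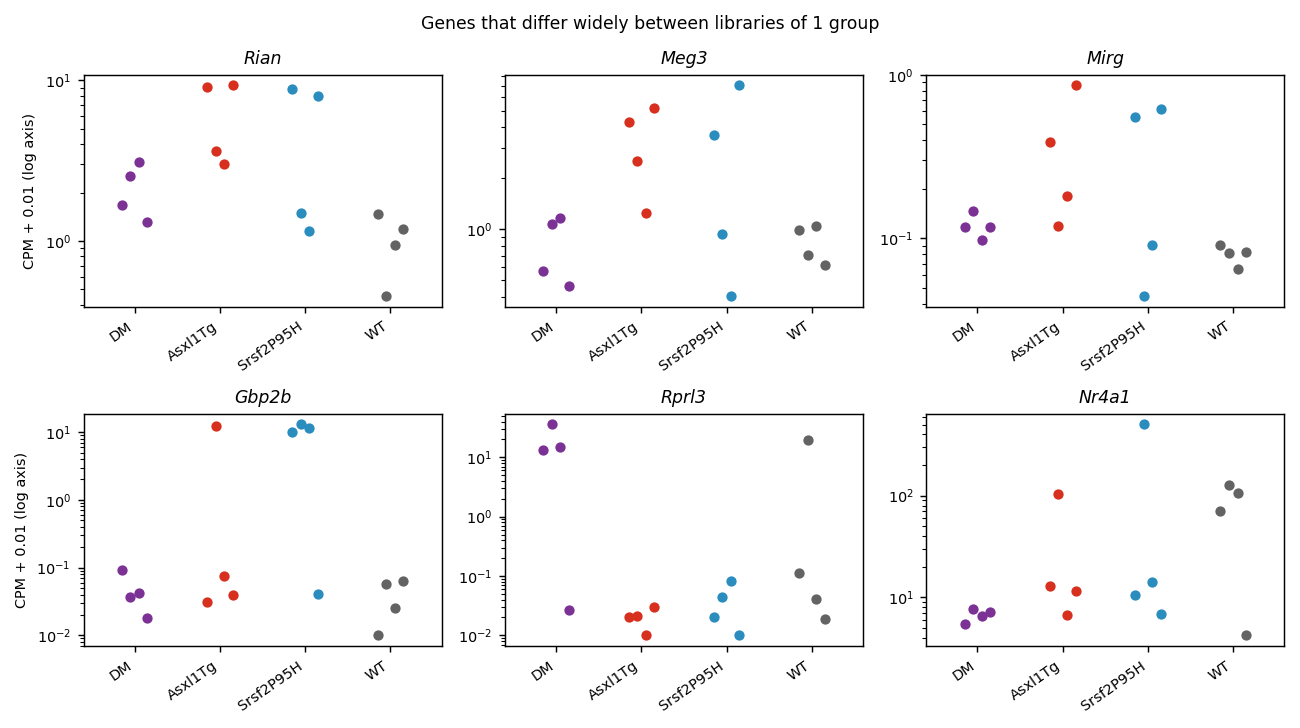
CPM plus 0.01 on a log axis, by library (points), of 6 genes that differ widely between libraries of 1 group, in DM, Asxl1Tg, Srsf2P95H and WT. Rian, Meg3 and Mirg are high in 2 libraries of each single mutant, and Gbp2b and Rprl3 are present in some libraries and nearly absent from others.

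The imprinted Dlk1-Meg3 region of chromosome 12, whose maternally expressed non-coding RNAs are known in long-term stem cells, gave large negative values that rested on some libraries. Rian was at 1.66, 2.53, 3.07 and 1.30 CPM in DM, 9.05, 3.63, 3.02 and 9.31 CPM in Asxl1Tg, 8.85, 1.49, 1.14 and 8 CPM in Srsf2P95H, and 1.47, 0.444, 0.932 and 1.17 CPM in WT. Replicates 1 and 4 of both single mutants were the 4 highest libraries. Rian had an interaction of -3.83 (SE 0.91), and Meg3 (-3.87, SE 0.99), Mirg (-3.95, SE 1.05) and Dlk1 (-3.82) of the same region were chosen after their values were seen. In Meg3 the same 4 libraries were at 4.25 and 5.15 CPM in Asxl1Tg and 3.58 and 7.05 CPM in Srsf2P95H, against 0.452 to 1.16 CPM in DM and 0.606 to 1.04 CPM in WT. Over the list of 19 imprinted growth regulators the median was -0.02, with 2 positive and 4 negative members at an unadjusted p under 0.05. Gbp2b, an interferon-induced GTPase, was at 10, 13 and 11.6 CPM in Srsf2P95H 1 to 3 and at 12.1 CPM in Asxl1Tg 2 while the remaining 12 libraries had at most 0.081 CPM, which makes its interaction of -14.48 (SE 3.23) no measure of non-additivity. Rprl3, an RNase P RNA-like gene, was at 13.1, 35.9 and 15 CPM in DM 1 to 3 and 19.2 CPM in WT 2, with 0.104 CPM or less elsewhere and an interaction of 17.75 (SE 3.88). Both have near-identical relatives, and whether reads were assigned differently between libraries was not tested. Nor was any other cause of these gaps.

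Primary cilium and Hedgehog genes held both signs. Of 35 tested, 22 were positive and 13 negative with a median of 0.14, and 10 positive and 3 negative members had an unadjusted p under 0.05. The positive ones included 4 of the Bardet-Biedl syndrome complex, which carries membrane proteins to cilia (Bbs1 at 0.72, Bbs2 at 0.60, Bbs4 at 0.74, Bbs9 at 0.38), the kinesin gene Kif3a (0.49, SE 0.12) and trains of intraflagellar transport (Ift81 at 0.80, Ift122 at 0.38). Bbs2 averaged 9.157 ± 0.61 CPM in DM, 7.007 ± 0.852 CPM in Asxl1Tg, 8.523 ± 0.715 CPM in Srsf2P95H and 9.882 ± 0.961 CPM in WT (SD, n = 4). Wdr35, also of intraflagellar transport, had 0.94 (SE 0.21) and fell in Srsf2P95H against WT (log2 -0.71, adjusted p = 0.0433, edgeR). The counts held with single libraries left out, at 7 to 10 positive and 2 to 4 negative members.

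Evc, Evc2 and Gli3 (-1.53) were the 3 negative members at an unadjusted p under 0.05. Evc, a ciliary protein of Hedgehog signalling, was at 32.2, 29.9, 30.7 and 23.3 CPM in DM, 31.6, 29.9, 41.9 and 43.4 CPM in Asxl1Tg, 5.12, 2.39, 3.50 and 3.83 CPM in Srsf2P95H, and 3.07, 1.22, 1.36 and 1.4 CPM in WT. DM and Asxl1Tg overlapped, and both lay far above Srsf2P95H and WT. The effect of the transgene was 2.97 in DM against Srsf2P95H (adjusted p = 0.000177) and 4.38 in Asxl1Tg against WT (adjusted p = 4.36e-06, edgeR). Their difference is the interaction of -1.41 (SE 0.38, adjusted p = 0.378). Evc2, its partner and neighbour, had -1.13 (SE 0.44), and Dzip1l of the ciliary base had -1.36 (SE 0.65). Without WT 1, the highest WT library of Evc and Evc2, the adjusted p was 0.0249 for Evc (value -1.82) and 0.0083 for Evc2 (-1.72).

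Serpinh1, the collagen chaperone HSP47, was at 13, 15.4, 20.4 and 11.8 CPM in DM, 13.9, 16.5, 17.5 and 16.9 CPM in Asxl1Tg, 2.83, 2.82, 2.21 and 3.47 CPM in Srsf2P95H, and 2.60, 2.41, 3.94 and 2.66 CPM in WT. It rose by 2.42 in DM against Srsf2P95H (adjusted p = 1.84e-05) and by 2.48 in Asxl1Tg against WT (adjusted p = 4.36e-06, edgeR), and its interaction was -0.06 (SE 0.27). Over the collagen folding and matrix list 25 of 30 values were negative, with a median of -0.35 and 7 negative and 2 positive members at an unadjusted p under 0.05. The negative count was 2 without Asxl1Tg 4, Srsf2P95H 4 or WT 4 and 10 without Asxl1Tg 2. Matn4 and Lox, a cross-linking enzyme of collagen (-2.75), were among the 7, and Postn, the matrix protein periostin, was the larger positive value (2.13, SE 0.67). Postn averaged 0.6805 ± 0.259 CPM in DM, 0.455 ± 0.145 CPM in Asxl1Tg, 1.275 ± 0.419 CPM in Srsf2P95H and 3.734 ± 2.16 CPM in WT, where WT 1 was low at 0.658 CPM.

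Stem cell genes leaned to positive values. Of 27, 18 were positive, 5 with an unadjusted p under 0.05 and 1 negative member likewise (Trim47, -0.37), and the median was 0.17. Hlf, a transcription factor of long-term stem cells, was at 361, 335, 449 and 375 CPM in DM, 189, 290, 319 and 253 CPM in Asxl1Tg, 292, 405, 388 and 279 CPM in Srsf2P95H, and 321, 331, 498 and 516 CPM in WT. All DM libraries of Hlf lay above all Asxl1Tg libraries, and the interaction was 0.82 (SE 0.27). Kit, the stem cell factor receptor and itself a marker used to purify the cells, had 0.43 (SE 0.16) and Txnip, a brake on glucose uptake, 0.67 (SE 0.27). DM 3 was the highest DM library of the list (mean log2 CPM 5.89, against 5.52 to 5.55), and without it 3 members were positive and 2 negative at an unadjusted p under 0.05. Without WT 4, 2 were positive and none was negative, and without Asxl1Tg 3, 6 were positive and 1 was negative.

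Among fetal stem cell regulators the median was 0.38 over 8 genes, and it was 0.17 without Asxl1Tg 4 and 0.74 without Asxl1Tg 3. Hmga2, a DNA-bending protein active in fetal stem cells, was at 15.9, 18.8, 13 and 8.48 CPM in DM, 3.74, 7.78, 6.83 and 3.43 CPM in Asxl1Tg, 22.9, 33.2, 29.8 and 27.9 CPM in Srsf2P95H, and 21.9, 20, 26.4 and 19.8 CPM in WT. The 4 groups were ordered Asxl1Tg, DM, WT and Srsf2P95H by mean, DM lay above Asxl1Tg and below WT with no overlap, and the interaction was 1 (SE 0.37). Hmga2 fell in Asxl1Tg against WT (log2 -2.02, adjusted p = 0.00194) and rose in DM against Asxl1Tg (1.37, adjusted p = 0.0269, edgeR). The zinc-finger gene Plag1 had 0.71 (SE 0.44). In the Hoxb cluster 7 of 8 values were negative with a median of -0.58. Hoxb8, a homeobox gene of immature myeloid cells, was at 1.23, 1.18, 2.41 and 1.42 CPM in DM, 0.911, 1.4, 1.5 and 1.25 CPM in Asxl1Tg, 0.530, 0.241, 0.779 and 0.619 CPM in Srsf2P95H, and 0.3, 0.048, 0.141 and 0.244 CPM in WT. It rose against WT in DM (3.08, adjusted p = 0.00168) and in Asxl1Tg (2.78, adjusted p = 0.00512, edgeR), and the interaction was -1.26 (SE 0.59). Hoxb2 (-0.82, SE 0.52), Hoxb5 (-0.54, SE 0.32) and Hoxb6 (-0.61, SE 0.36) were lower than additive by less than 2 SE each. The Hoxa cluster had a median of 0.19.

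Targets of p53 had no shared sign. Of 29, 17 were positive and 12 negative, with 3 positive and 5 negative members at an unadjusted p under 0.05 and a median of 0.06. Trp53inp1, a stress-induced regulator of autophagy, was at 52.0, 51.6, 72.5 and 54.1 CPM in DM, 23.6, 44.1, 37.4 and 26.2 CPM in Asxl1Tg, 46.4, 54.3, 54.1 and 42.9 CPM in Srsf2P95H, and 48.3, 61.7, 59.2 and 89.4 CPM in WT. Its Asxl1Tg mean was the lowest, all DM libraries lay above Asxl1Tg, and the interaction was 1.20 (SE 0.29). Trp53inp1 fell in Asxl1Tg against WT (log2 -0.98, adjusted p = 0.0292, edgeR). Sesn1, a stress-response inhibitor of mTORC1, had 0.78 (SE 0.20). Tigar, a fructose bisphosphatase that slows glycolysis, had -1.02 (SE 0.28), and the BH3-only gene Pmaip1 had -1.71.

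The Asxl and Bap1 complex list, partners of Asxl1 on chromatin, had a median of -0.06 over 12 genes and values from -0.77 to 0.35, with Ube2o (-0.37, SE 0.13) and Foxk2 (-0.39, SE 0.18) negative and Mbd5 (0.35, SE 0.13) positive at an unadjusted p under 0.05. Ube2o, an enzyme that ubiquitinates Bap1, rose in Asxl1Tg against WT (log2 0.37, adjusted p = 0.0432, edgeR). The Polycomb list had a median of 0.02 over 31 genes and values from -0.69 to 0.48. In it 1 positive and 3 negative members had an unadjusted p under 0.05. That share of 12.9% was near the 11.7% of all genes. Epop, a factor bound to PRC2, averaged 28.04 ± 3.16 CPM in DM, 40.94 ± 10.9 CPM in Asxl1Tg, 28.6 ± 5.8 CPM in Srsf2P95H and 25.89 ± 4.71 CPM in WT, with an interaction of -0.69 (SE 0.26). Of the PRC1 subunits, Phc2 had -0.25 (SE 0.09) and Rnf2, the ubiquitin ligase, 0.22 (SE 0.10). Interferon-stimulated genes had a median of 0.10, with 2 positive and 1 negative of 35 at an unadjusted p under 0.05, and genes mutated in myeloid neoplasms a median of 0.06 over 31.

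**Figure D5:**
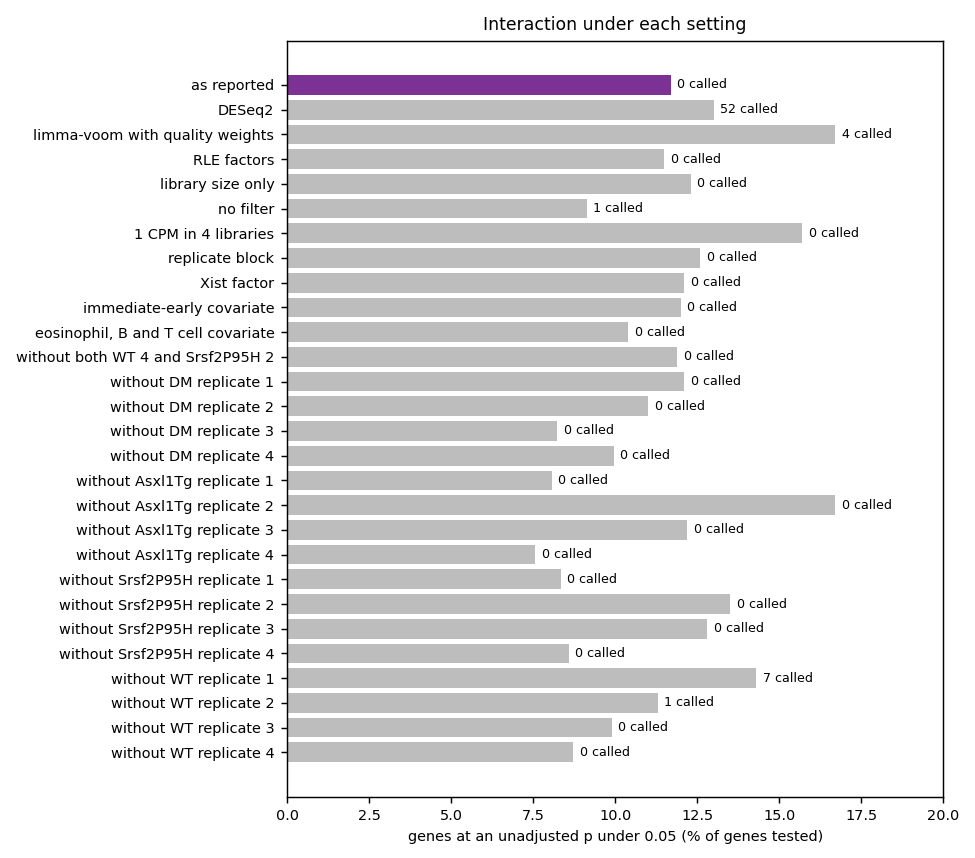
Share of tested genes with an unadjusted p under 0.05 for the interaction (bars, percent) under the reported setting and each alternative, with the number of genes called beside each bar. The share is 11.7% as reported and runs from 7.56% without Asxl1Tg 4 to 16.7% without Asxl1Tg 2 and with limma-voom.

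The number of genes called depended on the tool more than on the scaling. DESeq2's 52 calls included Serpina3g (adjusted p = 5.29e-06), Matn4 (0.000119), Rbm44 (0.000119), H2bc21 (0.000306), Mc5r (0.000649), Serpini1 (0.00173), Ptgds (0.00369), Wdr35 (0.00369), Parp2 (0.00798), Gpc3 (0.00959) and Pim2 (0.011). Some of its largest values belonged to genes present in only some libraries, such as Rprl3 and Gbp2b. Limma-voom called Serpina3g, Mc5r, Tmprss4 and Stpg3. Without WT 1, edgeR called 7 genes, namely Ccr9, Evc, Evc2, Dock1, Serpina3g, Selp and Plscr2, and without WT 2 it called Amd2. Serpina3g was called in 4 alternatives, more than any other gene.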

How the data were processed

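RNA-seq was measured in 16 libraries of LSK cells from individual mice, so p-values measure the spread between mice. The authors deposited raw counts per gene. Per the submitters' processing notes, the tools were STAR 2.7.0e, HTSeq 0.11.2, Trimmomatic 0.38 and FastQC, with mm10 as build. No source used here gives the annotation release or whether the count was stranded. Groups came from the labels. Genes were kept by filterByExpr (minimum count 10), scaled by TMM and fitted with edgeR 4.0.16 (robust quasi-likelihood, all groups in 1 fit, R 4.3.3), with Benjamini-Hochberg adjustment over 22749 genes and a threshold of 0.05. Log2 CPM used a prior count of 2. The code was tested on simulated counts with a known interaction and no other genotype effect. That setting holds no uneven libraries such as WT 4, so it does not show how the test performs on these data.

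Members and lists were chosen with earlier results of these data known. The 45 lists held 1050 entries, of which 1023 matched by symbol, 13 by synonym and 13 not at all, and 1 was a repeat. Named genes were Asxl1 and Srsf2, the 12 genes per direction with the smallest unadjusted p (mean of at least 1 CPM, no predicted or clone names), up to 4 members of the 10 lists with the largest absolute median and up to 3 of the lists on Asxl1, Polycomb, SR proteins and splice targets, all by smallest p. Others were singled out after their values were seen. Levels are CPM and are not scaled by gene length. Alternatives were DESeq2 1.42.0, limma-voom 3.58.1, other scalings and filters, covariates, a replicate block and each library left out. Promoters came from RefSeq (GRCm38.p6) and gene coordinates from the GENCODE M21 annotation (GRCm38). No 2 libraries of a group were duplicates, with a chi-square over its degrees of freedom of at least 37.7 in 24 pairs.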

Additional observations from a re-analysis of the deposited data

Results flagged for a closer look

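Within each group of 4 libraries, 640 groups of values (115 named genes and 45 lists) were checked for a library far from the other 3, and 48 had one whose gap to its nearest neighbour, as a share of the range, reached Dixon's critical value. Chance alone gives such a gap in about 5% of groups. Values are CPM for genes and mean log2 CPM for lists. In DM 1, the gene Tacc2 at 13.7 CPM and the lists Lymphoid priming at 3.26 and Mitochondrially encoded at 5.83 (mean log2 CPM) stood apart. In DM 2, the gene S100a9 at 2.28 CPM stood apart. In DM 3, the genes Cox5b at 93.7 CPM, Sf3a2 at 91.7 CPM, Trp53inp1 at 72.5 CPM and U2af1 at 83.3 CPM and the lists Hoxb cluster at 1.19, Stem cell at 5.89 and G1 cyclins and CDK inhibitors at 6.01 (mean log2 CPM) stood apart. In DM 4, the genes Rprl3 at 0.0164 CPM and Siglecf at 16.6 CPM and the list Monocyte and macrophage at 0.98 (mean log2 CPM) stood apart. In Asxl1Tg 2, the genes Gbp2b at 12.1 CPM, H2bc21 at 13.8 CPM and Rbm44 at 0.81 CPM and the list Granulocyte-monocyte progenitor at 6.26 (mean log2 CPM) stood apart. In Asxl1Tg 3, the genes Cd68 at 13.4 CPM and Fcgr1 at 0.216 CPM and the list Asxl and Bap1 complex at 6.14 (mean log2 CPM) stood apart. In Asxl1Tg 4, the gene Tacc2 at 22.9 CPM stood apart. In Srsf2P95H 1, the genes Rag2 at 2.04 CPM and Serpina3f at 2.03 CPM and the list Core spliceosome at 7.11 (mean log2 CPM) stood apart. In Srsf2P95H 2, the genes Cox5b at 103 CPM, Fcgr1 at 0.552 CPM, Fosl2 at 143 CPM, Klf2 at 837 CPM and Nr4a1 at 503 CPM and the list Cytokine feedback inhibitors at 5.84 (mean log2 CPM) stood apart. In Srsf2P95H 3, the genes Asxl1 at 234 CPM, Myc at 364 CPM and Xbp1 at 94 CPM stood apart. In Srsf2P95H 4, the gene Gbp2b at 0.0309 CPM and the list Mature B cell at 1.04 (mean log2 CPM) stood apart. In WT 1, the genes Evc at 3.07 CPM, Postn at 0.658 CPM and Xbp1 at 109 CPM stood apart. In WT 2, the list Primary cilium and Hedgehog at 3.07 (mean log2 CPM) stood apart. In WT 4, the genes Fosl2 at 40.2 CPM, Hoxb6 at 1.18 CPM, Il5ra at 5.84 CPM, Mbd5 at 58.8 CPM, Nr4a1 at 4.21 CPM and Pola2 at 85.2 CPM and the lists SR protein and hnRNP at 7.55 and Cytosolic ribosomal protein at 9.42 (mean log2 CPM) stood apart.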

How the results depend on the processing

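Of 0 genes called by edgeR, DESeq2 made 52 (34 positive, 18 negative), limma-voom 4 (3 positive, 1 negative) and edgeR with no filter 1 (negative); the other scalings, filters and covariates made 0. With each library left out in turn the calls ran from 0 to 7, the positive ones from 0 to 1 and the negative ones from 0 to 6 (7 without WT 1 and 1 without WT 2), and genes at an unadjusted p under 0.05 from 1753 (without Asxl1Tg 4) to 3877 (without Asxl1Tg 2). The replicate block made 0 calls and 2864 genes at an unadjusted p under 0.05; replicate numbers did not pair the libraries (r from -0.293 to 0.295 over 24 pairs, 3 of 16 libraries correlating best with their own number). Alox15 turned to -0.23 with limma-voom and with the immediate-early covariate, -0.21 with the eosinophil, B and T cell covariate and -0.68 without both WT 4 and Srsf2P95H 2, and ran from -0.48 to 2.68 with 1 library left out. Without both libraries Fosl2 was 0.01, Il5ra -0.06, Klf2 0.61 and Nr4a1 0.95. Klf2 was 0.12 and Nr4a1 1.14 with limma-voom, and Nr4a1 0.42 with the immediate-early covariate. With 1 library left out Klf2 ran from -2.39 to 0.21, Nr4a1 from -3.52 to 0.56, Asxl1 from -0.02 to 0.07 and Serpinh1 from -0.24 to 0.05. The cause of these turns was not tested. Alox15 is part of the eosinophil, B and T cell covariate, and Klf2 and Nr4a1 are immediate-early genes. A covariate that holds a gene's own level does not test that gene. Over all alternatives, 3049 values of named genes kept their direction and side of the threshold, 33 passed it and 19 turned. Of list medians, 1194 moved by less than the spread used and 21 by more. That spread was the SD of a list's mean log2 CPM within groups, pooled over the groups. It is wide for uneven lists. The turn of the immediate-early median from -0.67 to 0.21 without Srsf2P95H 2 lay within it. With 4 mice a group, the median standard error of 0.332 limits what could be called.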

Other observations

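Granulocyte-monocyte progenitor genes had 14 of 18 negative values and a median of -0.44 (-0.62 without WT 1 and -0.3 without WT 3), with medians of 0.60 in DM against WT, 0.39 in Asxl1Tg against WT and 0.65 in Srsf2P95H against WT. Dendritic cell genes had 11 of 16 positive values, 4 of them at an unadjusted p under 0.05, and a median of 0.29, which ran from -0.05 to 0.49 over the alternatives. MHC class II genes had 10 of 11 positive values and a median of 0.18. DNA damage and repair genes had 20 of 29 negative values and a median of -0.07, NF-kB and TNF signalling genes a median of 0.02 over 28, and megakaryocyte and platelet genes a median of 0.20 over 20 with none at an unadjusted p under 0.05.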
